A study of Mus musculus with 12 samples.

Results

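White matter cells selected as astrocytes from wild-type mice fed cuprizone for 3 weeks were compared with cells selected alike from untreated wild-type mice. The comparison used 3 arrays a group and all 19505 genes of the array with a symbol. The selected cells also held transcripts of oligodendrocytes and microglia, as described below. These 6 arrays are part of a series of 12. They were chosen by their titles alone, with no measured value. The mice were C57BL/6 and began a powdered diet with 0.2% (w/w) cuprizone at 8 to 12 weeks of age. The untreated group had 0 weeks of diet and the treated group 3 weeks, both wild-type for the glycosyltransferase GnT-IX. A further 3 wild-type arrays after 12 weeks of the same diet are given where a later value helps to place the 3-week one, and 3 arrays of GnT-IX-deficient mice after 12 weeks entered the fit but no comparison here. Cells were freed from white matter with papain, their Fc receptors were blocked against binding by microglia, and magnetic beads then picked out those carrying GLAST, a glutamate transporter whose gene is Slc1a3. No untreated group kept for 3 more weeks was analysed here, so cuprizone cannot be told apart from age and time on the diet. Total RNA came from either of a pair of extraction kits, and the sources used here do not give the kit, the time of day or the number of mice behind each array.

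Cuprizone is a copper chelator that kills mature oligodendrocytes and strips myelin from the corpus callosum, while astrocytes and microglia turn reactive. Astrocytes take up glutamate and potassium, share ions through gap junctions, store glycogen and supply sterols to neighbouring cells. Under amino acid shortage, misfolded protein or mitochondrial damage, cells phosphorylate the initiation factor eIF2alpha, which slows translation and raises ATF4, a transcription factor for amino acid enzymes and carriers. This programme is called the integrated stress response. Sterol enzymes are switched on together by SREBP2 when membrane cholesterol falls, and p53 raises cell cycle inhibitors after DNA damage.

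Of the 19505 genes tested, 632 passed limma's test at a Benjamini-Hochberg adjusted p of 0.05, which is 3.24% of genes. Of these, 315 were higher after 3 weeks (1.61% of genes) and 317 were lower (1.63%). Another 3142 genes had an unadjusted p under 0.05, the called ones included, and 367 of the calls were at least 2-fold. The 3 treated values all lay beyond the 3 untreated values in 21.2% of genes and in 631 of the 632 calls. Separate groups are thus near certain for a called gene and are no added support where named below. Values are on the log2 scale, in which a difference of 1 is a 2-fold change, and the median difference over all genes was -0.02. With 0-week replicate 1, 2 or 3 left out the calls numbered 192, 244 and 360, and with 3-week replicate 1, 2 or 3 left out they numbered 270, 643 and 385. In all, 153 genes passed in each of these 6 fits, 73 of them higher and 80 lower. The shares of all genes called, 1.61% higher and 1.63% lower, are the background of every list count below. The lists were chosen with earlier results of these data known. Their counts beside these shares are thus descriptive and no independent test. Where a gene named as risen or fallen did not pass in all 6 fits, this is said in its paragraph. Counts for a gene list with 1 array left out follow the same order, the 0-week replicates 1 to 3 and then the 3-week replicates 1 to 3.

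Array medians lay between 5.38 and 5.45 and lower quartiles between 3.73 and 3.85, and the 0-week arrays correlated across genes with r of 0.98 to 0.985 and the 3-week arrays with r of 0.974 to 0.979. Slc38a3, Gja1 and Kcnk1, which are typical of astrocytes, lay at 7.98 or more on all 6 arrays, Gfap lay between 5.90 and 6.55 untreated, and Gdf10 lay below the array medians after treatment. Levels thus differed among astrocyte genes, and on the treated arrays Aqp4 read 7.49, 7.28 and 7.40 and Aldh1l1 7.59, 8.06 and 7.59. Microglia and macrophage markers averaged 5.55, 4.92 and 5.24 on the 0-week arrays and 8.87, 6.98 and 6.46 on the 3-week arrays, so 3-week replicate 1 stood above the other two. Mature oligodendrocyte markers averaged 9.38, 9.54 and 9.20 untreated and 9.18, 9.04 and 9.61 treated, so oligodendrocyte transcripts were abundant in each preparation. Beside them, the 20 astrocyte enzymes and surface genes described below averaged 9.33 untreated and 8.38 treated. In bulk RNA, fewer cells of a type and less RNA per cell cannot be told apart.

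**Figure D1:**
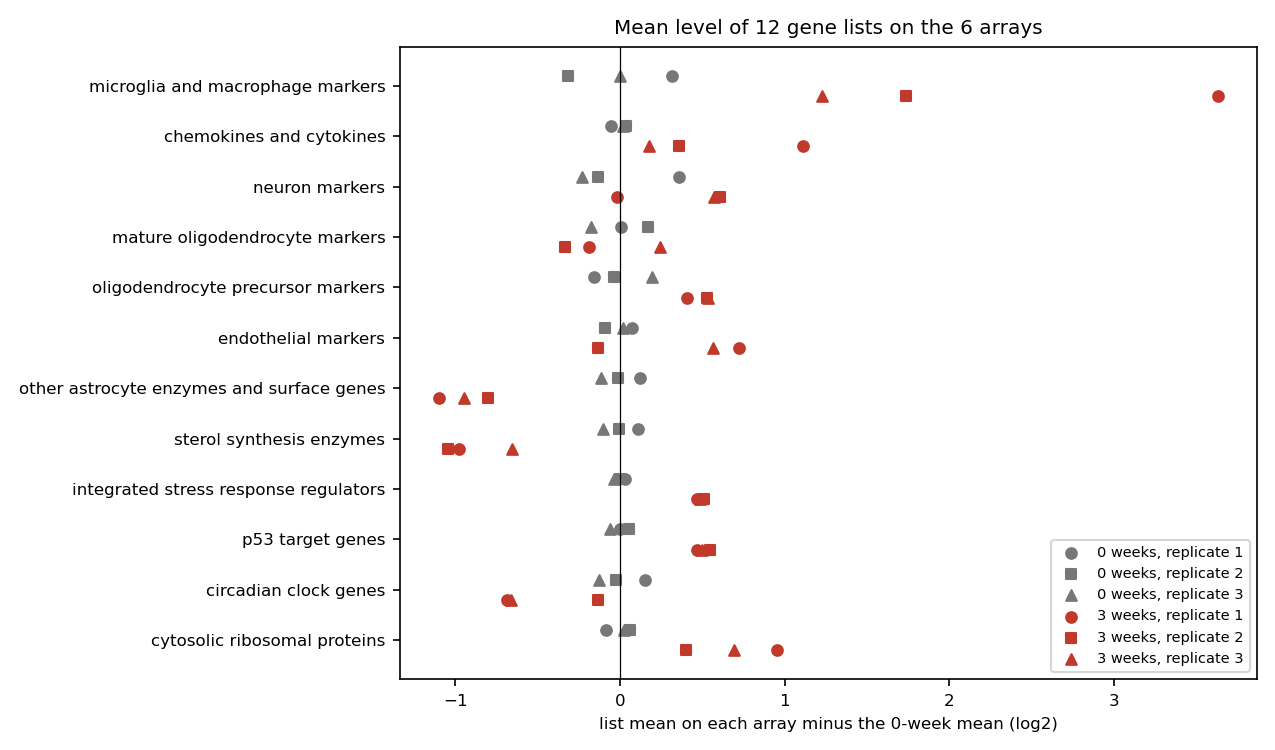
Mean level of 12 gene lists on each of the 6 arrays, as a log2 difference from the mean of the 0-week arrays (grey, untreated; red, 3 weeks; marker shape, replicate). Microglia and macrophage markers spread widely over the 3-week arrays, with replicate 1 highest, while stress response and p53 target genes lie close together.

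Genes of resting astrocytes were lower after 3 weeks. Of 12 measured transporters of glutamate, GABA and amino acids, 5 fell and 1 rose, with a median difference of -0.75, and the counts with 1 array left out were 1, 3, 3, 3, 6 and 3. Slc38a3, the carrier that releases glutamine to neurons, read 11.67, 11.57 and 11.65 on the untreated arrays and 10.51, 10.71 and 10.54 on the treated ones. The groups were far apart and the replicates of each lay close together. Slc38a3 fell by 1.04 (SE 0.17, adjusted p = 0.00429). Slc1a3, whose product the beads bind, read 8.84, 8.19 and 8.01 untreated and 7.0, 7.50 and 6.49 treated, and it fell by 1.35 (SE 0.27, adjusted p = 0.015). The gene used to select the cells was thus lower on every treated array. Its call was lost without 0-week replicate 1 (adjusted p = 0.0839) and without 3-week replicate 3 (adjusted p = 0.0569).

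Some ion channels and gap junction proteins were also lower. Of 13 measured genes of water, potassium and bicarbonate handling, 2 fell and none rose, with a median of -0.61, and the counts with 1 array left out were 1, 1, 1, 1, 3 and 1. They were Kcnk1 and Slc4a4, a bicarbonate cotransporter whose call held without 3-week replicate 2 alone and was lost with the replicate block (adjusted p = 0.0579). Kcnk1, a background potassium channel of astrocytes, read 10.30, 10.19 and 9.57 untreated and 7.98, 8.17 and 8.17 treated. It fell by 1.91 (SE 0.24, adjusted p = 0.00119), a 3.77-fold drop, and its mean after 12 weeks was 8.97. Aqp4, the water channel of astrocyte endfeet, had a difference of -0.94 (SE 0.27, adjusted p = 0.0762) and did not pass, and Kcnj10, the inward rectifier that clears potassium, had a difference of 0.25 (SE 0.26). Gja1, which encodes connexin 43 of astrocyte gap junctions, read 10.33, 10.38 and 10.22 untreated and 8.97, 8.72 and 9.35 treated, and it fell by 1.30 (SE 0.23, adjusted p = 0.00718).

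**Figure D2:**
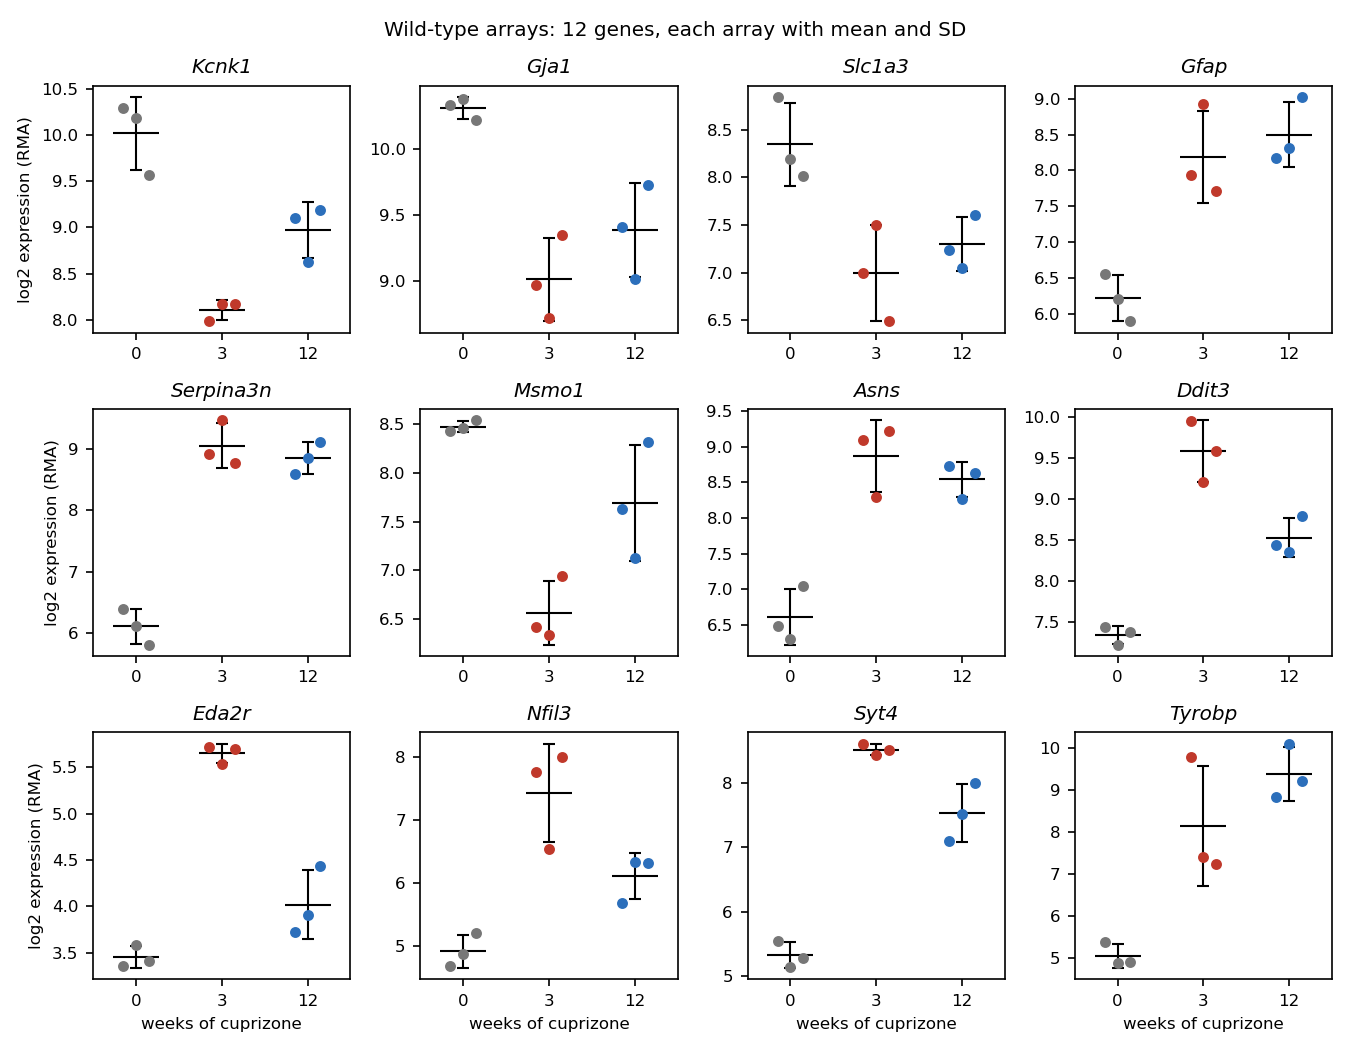
Expression (log2, RMA) of 12 genes on the 9 wild-type arrays by weeks of cuprizone, with each array as a point and the mean and SD of 3 arrays as bars. Kcnk1, Gja1, Slc1a3 and Msmo1 are lower after 3 weeks, the other 8 are higher, and Tyrobp shows one 3-week array far above the other two.

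Enzymes and surface genes typical of astrocytes were lower too. Of 20 measured in a further list, 11 fell and none rose, with a median of -1.05, and the counts with 1 array left out were 5, 7, 9, 7, 11 and 9. Gdf10, a ligand of the bone morphogenetic protein family, read 6.90, 6.30 and 5.52 untreated and 3.65, 4.16 and 4.34 treated, and it fell by 2.19 (SE 0.38, adjusted p = 0.00649). Chrdl1, a secreted antagonist of bone morphogenetic proteins, read 8.52, 8.16 and 8.21 untreated and 6.51, 6.51 and 6.34 treated. Its treated values lay close together, and it fell by 1.84 (SE 0.24, adjusted p = 0.00119). Mfge8, a bridge between dying cells and phagocytes, read 11.01, 10.84 and 10.34 untreated and 9.27, 9.18 and 9.15 treated, and it fell by 1.53 (SE 0.21, adjusted p = 0.00179). Gldc of the glycine cleavage system fell by 1.28 (SE 0.23) and Phkg1, the catalytic subunit of phosphorylase kinase, by 1.26 (SE 0.23). Aldh1l1, a folate enzyme used as a marker of astrocytes, fell by 1.16 (SE 0.22, adjusted p = 0.011), and its call was lost without 0-week replicate 1 (adjusted p = 0.0614).

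Of 20 astrocyte identity factors and receptors, 7 fell and none rose, with a median of -0.68, and the counts with 1 array left out were 1, 2, 5, 1, 7 and 3. Gpr37l1, a receptor of astrocytes, read 11.54, 11.37 and 11.18 untreated and 10.40, 10.33 and 10.38 treated, and it fell by 0.99 (SE 0.16, adjusted p = 0.00471). Sox9, a transcription factor that keeps astrocyte identity, had a difference of -0.67 (SE 0.21, adjusted p = 0.103). S100b, a calcium-binding protein of astrocytes, had a difference of -0.14 (SE 0.21). Not all marker genes of astrocytes were lower by a like amount, and the range over the 20 members was -1.40 to 0.39.

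Lists of transmitter receptors, glycogen genes and the Nat8 family were added after values had been seen. Of 20 measured transmitter receptors, 6 fell and 2 rose, while the list median was 0.165. The counts with 1 array left out were 4, 6, 7, 7, 7 and 6. Gabrb1 and Gabrg1, subunits of the GABA-A receptor, fell by 1.30 (SE 0.21) and 1.39 (SE 0.24). Gabrb1 read 8.19, 8.31 and 8.50 untreated and 7.01, 7.12 and 6.96 treated. S1pr1, a receptor for sphingosine 1-phosphate, read 10.69, 10.53 and 10.35 untreated and 9.71, 8.94 and 9.14 treated, and it fell by 1.26 (SE 0.22, adjusted p = 0.00587). Grik3, a kainate receptor subunit, went the other way. It read 5.52, 5.50 and 5.55 untreated and 7.33, 8.03 and 7.02 treated, and it rose by 1.94 (SE 0.22, adjusted p = 0.000855).

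Of 24 genes of glycogen metabolism, 5 fell and none rose, with a median of -0.23, and the counts with 1 array left out were 1, 1, 4, 3, 3 and 2. The 5 were Pygm, the muscle and astrocyte form of glycogen phosphorylase, the phosphatase subunits Ppp1r3d and Ppp1r3g that bind glycogen, and the phosphorylase kinase subunits Phka1 and Phkg1. Phkg1 alone passed in all 6 fits with 1 array left out, against 1 for Pygm, 2 for Ppp1r3d, 3 for Ppp1r3g and 2 for Phka1. The Pygm call was also lost with the replicate block (adjusted p = 0.0692), and that of Ppp1r3g with the 6 arrays compared alone (0.0502). Of 9 measured genes of the Nat8 family of N-acetyltransferases, 6 fell, with a median of -1.11, and the counts with 1 array left out were 4, 5, 5, 5, 5 and 5. Nat8f5 read 8.09, 7.53 and 7.93 untreated and 6.04, 5.73 and 6.24 treated, and it fell by 1.85 (SE 0.27, adjusted p = 0.00252). Nat8f3, Nat8f6 and Nat8f7 fell by 1.41, 1.13 and 1.52. These genes are close copies of each other, so probes may not separate them, and the shared falls are not independent.

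Other large falls were in genes of cell signalling and of the matrix. Entpd2, an enzyme that breaks down extracellular ATP, read 9.23, 8.70 and 8.49 untreated and 6.90, 7.20 and 7.30 treated, and it fell by 1.67 (SE 0.22, adjusted p = 0.00119). Maob, the monoamine oxidase of astrocytes, read 6.87, 6.95 and 6.80 untreated and 5.66, 5.05 and 5.64 treated, and it fell by 1.42 (SE 0.24). Prex2, an exchange factor for Rac, read 9.20, 9.35 and 9.71 untreated and 8.02, 7.33 and 7.66 treated, and it fell by 1.75 (SE 0.22, adjusted p = 0.00119). Each of these genes had all its treated values below all its untreated ones, as in nearly all called falls.

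Reactive astrocyte genes rose in part. Of 13 pan-reactive genes, 3 rose, none fell and the median was 0.63, and the counts with 1 array left out were 2, 3, 2, 2, 2 and 5. Serpina3n, a serine protease inhibitor, read 6.39, 6.12 and 5.81 untreated and 8.92, 9.47 and 8.78 treated, and it rose by 2.95 (SE 0.35, adjusted p = 0.000942), a 7.73-fold increase. Its 12-week mean was 8.86. Cd44, a hyaluronan receptor, read 4.56, 3.81 and 3.50 untreated and 6.05, 6.29 and 5.49 treated, and it rose by 1.99 (SE 0.33, adjusted p = 0.00478). Gfap, the astrocyte intermediate filament, read 6.55, 6.21 and 5.90 untreated and 7.93, 8.92 and 7.71 treated, and it rose by 1.97 (SE 0.46, adjusted p = 0.0305). The Gfap groups did not overlap, but the call was lost without 0-week replicate 1 (adjusted p = 0.0734), 2 (0.0976) or 3 (0.0986) and without 3-week replicate 1 (0.0638) or 2 (0.0909), and with trend and robust variance (0.0768). Vim, another intermediate filament, had a difference of 0.80 (SE 0.23, adjusted p = 0.077), and Lcn2, an iron-siderophore binder secreted by reactive glia, one of 1.49 (SE 0.41, adjusted p = 0.0623). Of the 10 measured A1-type genes 1 rose, H2-T23, and of the 12 A2-type genes 1 rose, Cd14, which myeloid cells also express. H2-T23 rose by 1.06 (SE 0.21, adjusted p = 0.0124), and its call was lost without 0-week replicate 2 (adjusted p = 0.0605) or 3-week replicate 1 (0.0638).

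**Figure D3:**
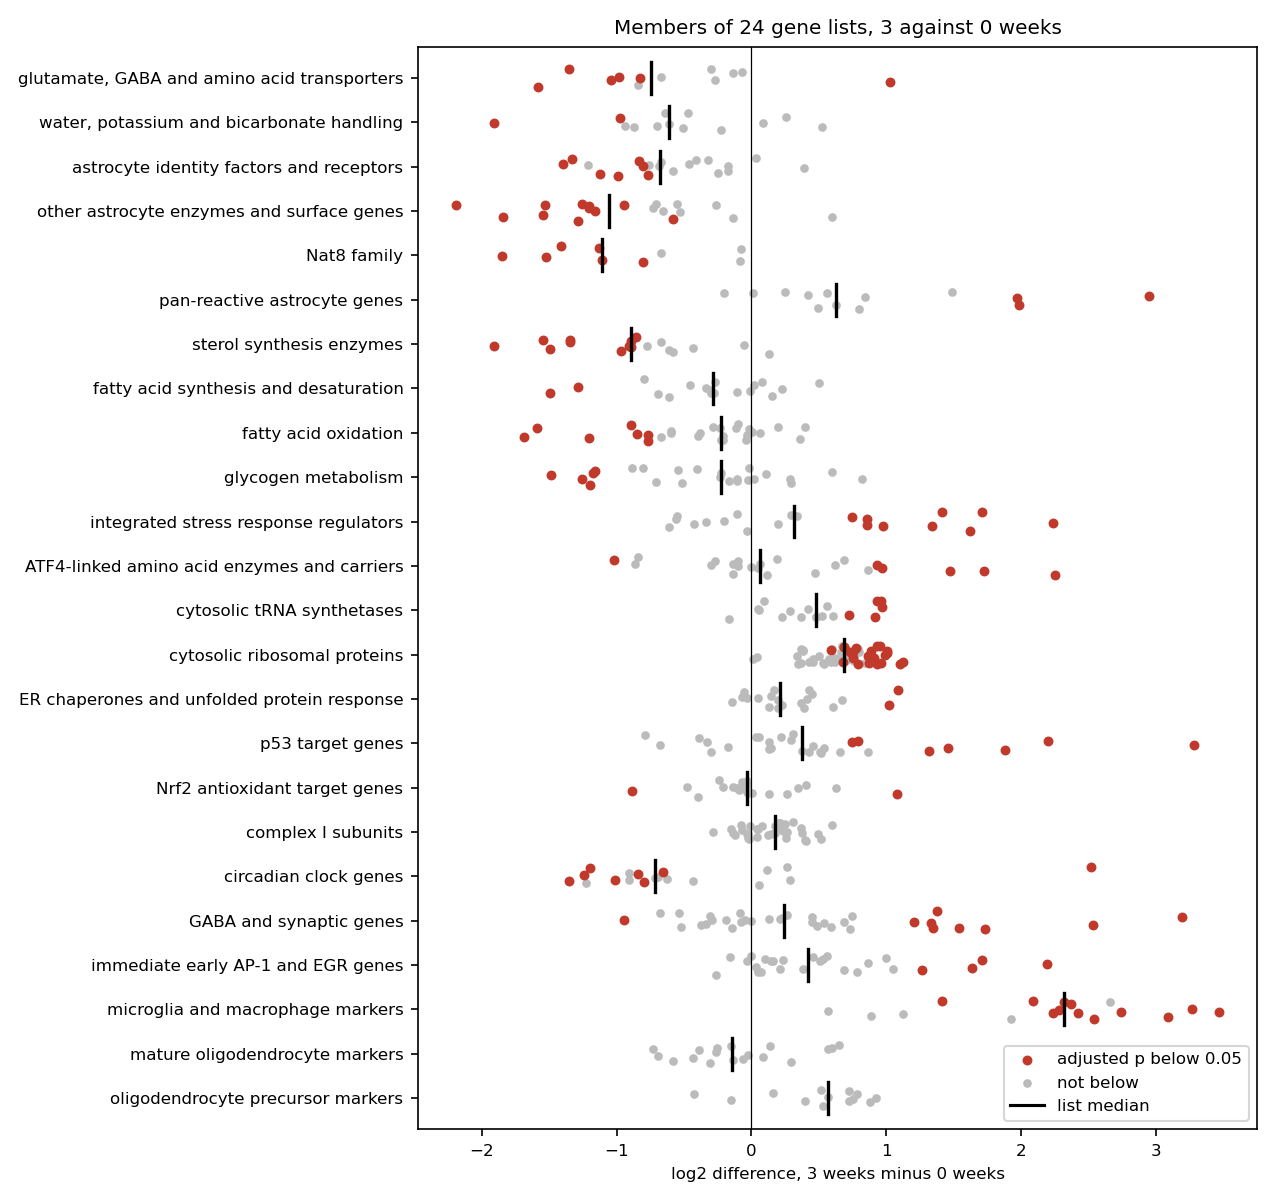
Log2 difference, 3 weeks minus 0 weeks, of each measured member of 24 gene lists (red, adjusted p below 0.05; grey, not below; black bar, list median). Resting astrocyte, sterol and clock genes lie mostly left of zero, and microglia markers and ribosomal proteins lie to its right.

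Enzymes of sterol synthesis fell. Of 17 measured enzymes 10 fell, none rose and the median was -0.89, against 1.63% of all genes called lower, and the counts with 1 array left out were 5, 7, 9, 6, 8 and 9. The promoters of both enzymes below that hold a sterol response element-type match are printed to show where the matches lie, from 250 bases before to 50 after the transcription start in RefSeq's table for GRCm38.p6. Capitals mark TCACNCCA, an element of the type bound by SREBP, and CCAAT, the element of the type bound by NF-Y, searched on both strands, with no overlap between the matches shown. Msmo1 lies on the minus strand at chr8:64733529-64733828 and Hmgcs1 on the plus strand at chr13:119690101-119690400, and each sequence runs 5′ to 3′ along its gene.
Msmo1: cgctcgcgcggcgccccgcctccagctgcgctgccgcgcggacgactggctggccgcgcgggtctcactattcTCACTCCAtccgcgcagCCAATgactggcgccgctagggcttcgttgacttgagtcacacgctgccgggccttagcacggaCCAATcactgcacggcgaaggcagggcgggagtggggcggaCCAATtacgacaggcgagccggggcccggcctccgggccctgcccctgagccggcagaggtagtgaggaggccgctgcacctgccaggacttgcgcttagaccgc
Hmgcs1: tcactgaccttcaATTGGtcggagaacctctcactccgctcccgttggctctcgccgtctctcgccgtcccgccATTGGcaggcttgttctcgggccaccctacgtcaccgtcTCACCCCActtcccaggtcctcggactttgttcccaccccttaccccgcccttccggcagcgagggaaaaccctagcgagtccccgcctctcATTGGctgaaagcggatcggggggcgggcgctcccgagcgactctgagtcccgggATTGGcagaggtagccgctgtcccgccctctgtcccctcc
Of the 14 sterol enzymes with a promoter in the table, 14 held CCAAT, against 41.1% of all 27025 genes in it, and 2 held TCACNCCA, against 5.0%. Those were Msmo1 and Hmgcs1, both among the falls. CCAAT was in the promoters of all 8 called enzymes and of all 6 that were not called, so it did not separate them. A match is a run of letters, and binding was not measured here.

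Called falls lay at early and late steps of the pathway, and 7 of the 17 enzymes were not called. The uncalled enzymes included Pmvk, Idi1, Ggps1, Lss, Cyp51 and Ebp. Hmgcs1, the synthase of 3-hydroxy-3-methylglutaryl-CoA whose promoter is printed above, read 7.61, 7.55 and 7.25 untreated and 6.35, 6.39 and 6.76 treated, and it fell by 0.97 (SE 0.22, adjusted p = 0.0266). Its call was lost without 0-week replicate 1 (adjusted p = 0.113) or 2 (0.1) and without 3-week replicate 1 (0.104) or 2 (0.0628). Mvd, which makes isopentenyl diphosphate, read 8.13, 7.72 and 6.97 untreated and 5.69, 6.47 and 6.02 treated, and it fell by 1.55 (SE 0.27, adjusted p = 0.00628). Fdft1, squalene synthase, read 9.92, 9.77 and 9.78 untreated and 8.14, 8.24 and 8.60 treated, and it fell by 1.50 (SE 0.21, adjusted p = 0.00179). Msmo1, a methylsterol oxidase and the largest fall of the list, read 8.43, 8.46 and 8.54 untreated and 6.42, 6.33 and 6.94 treated. It fell by 1.91 (SE 0.26, adjusted p = 0.00132), a 3.77-fold drop. The late enzymes Nsdhl and Dhcr7 each fell by 1.34 (SE 0.23 and 0.19). Values of the 5 enzymes from Mvd to Dhcr7 did not overlap between groups, as in nearly all calls. Their 12-week means were 6.56 for Mvd, 9.17 for Fdft1, 7.69 for Msmo1, 8.17 for Nsdhl and 8.40 for Dhcr7. Each lay between the means of the untreated and 3-week arrays.

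Of the regulators of the pathway, Srebf2, which encodes SREBP2, had a difference of -0.63 (SE 0.23, adjusted p = 0.18). Of 12 regulators and genes of LDL uptake 1 fell and 1 rose. Insig1, a feedback sensor of sterols, fell by 1.04 (SE 0.26, adjusted p = 0.0395) and Mylip, which marks the LDL receptor for degradation, rose by 1.48 (SE 0.32, adjusted p = 0.0223). With 1 array left out the counts of this list were 0, 0, 0, 0, 0 and 1. Insig1 had an adjusted p of 0.136, 0.156 and 0.0512 without the 0-week replicates in order and of 0.141, 0.0777 and 0.0595 without the 3-week replicates, and of 0.0622 with the replicate block. Mylip kept its call without 3-week replicate 3 alone, and its adjusted p otherwise lay between 0.0551 and 0.107.

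Of 18 genes of fatty acid synthesis and desaturation 2 fell, none rose and the median was -0.29. They were Elovl2, which elongates polyunsaturated fatty acids, and Thrsp, a lipogenic gene that responds to thyroid hormone, and both passed with each array left out. Elovl2 read 9.32, 9.34 and 9.01 untreated and 7.64, 7.83 and 7.72 treated, and it fell by 1.49 (SE 0.23, adjusted p = 0.003). Thrsp read 8.73, 8.95 and 8.47 untreated and 7.40, 7.48 and 7.42 treated, and it fell by 1.28 (SE 0.22, adjusted p = 0.00551). Fasn, fatty acid synthase, had a difference of -0.69 (SE 0.26, adjusted p = 0.192), and Apoe, the main lipid carrier of astrocytes, one of -0.10 (SE 0.17). Of 28 genes of fatty acid oxidation, a list added after values had been seen, 7 fell, none rose and the median was -0.23, with counts of 2, 3, 3, 3, 5 and 3 with 1 array left out. Ucp3, a mitochondrial carrier, fell by 1.69 (SE 0.24), and Crot, which handles medium-chain acyl groups in peroxisomes, by 1.21 (SE 0.19). Ppara, the nuclear receptor that switches on fatty acid oxidation, fell by 1.59 (SE 0.29, adjusted p = 0.00796), and its call was lost without 0-week replicate 1 (adjusted p = 0.051).

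Several regulators of the integrated stress response rose. Of 20 regulators 9 rose, none fell and the median was 0.31, against 1.61% of all genes called higher, and the counts with 1 array left out were 3, 5, 6, 4, 7 and 6. The mean of the list read 6.40, 6.37 and 6.34 on the untreated arrays and 6.84, 6.88 and 6.86 on the treated ones. It covers 12 members with a positive difference and 8 with a negative one, 3 of these at an unadjusted p under 0.05 by limma. Some members were less alike on the treated arrays. Atf3, 1 of the 9, read 5.25, 5.29 and 4.72 untreated and 7.42, 6.14 and 5.95 treated. It passed in 2 of the 6 fits with 1 array left out, and not with the 6 arrays compared alone (adjusted p = 0.0581). Ddit3, the stress transcription factor CHOP, read 7.44, 7.23 and 7.39 untreated and 9.96, 9.21 and 9.59 treated. It rose by 2.23 (SE 0.25, adjusted p = 0.000732), a 4.70-fold increase, and its 12-week mean was 8.53. Nupr1, a stress-induced chromatin protein, read 7.17, 7.40 and 7.43 untreated and 9.17, 8.94 and 9.03 treated, and it rose by 1.71 (SE 0.22, adjusted p = 0.00119). Cebpg, a partner of ATF4, read 6.44, 5.97 and 6.23 untreated and 7.95, 7.41 and 8.15 treated, and it rose by 1.62 (SE 0.26, adjusted p = 0.00429). For Ddit3, Nupr1 and Cebpg all treated values lay above all untreated ones, as in nearly all called rises. Atf4 itself rose by 0.98 (SE 0.23, adjusted p = 0.0316), and its call was lost without 0-week replicate 1 (adjusted p = 0.151) or 3 (0.0762) and without 3-week replicate 1 (0.136) or 3 (0.0655), and with the 6 arrays compared alone (0.053).

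The promoters of 3 of the risen genes are printed to show the match to the composite element of the type bound by C/EBP and ATF4. Capitals mark TGATGNAA on either strand, from RefSeq's table for GRCm38.p6, with each sequence 5′ to 3′ along its gene. Asns lies on the minus strand at chr6:7693160-7693459, Chac1 on the plus strand at chr2:119350992-119351291 and Nupr1 on the minus strand at chr7:126625421-126625720.
Asns: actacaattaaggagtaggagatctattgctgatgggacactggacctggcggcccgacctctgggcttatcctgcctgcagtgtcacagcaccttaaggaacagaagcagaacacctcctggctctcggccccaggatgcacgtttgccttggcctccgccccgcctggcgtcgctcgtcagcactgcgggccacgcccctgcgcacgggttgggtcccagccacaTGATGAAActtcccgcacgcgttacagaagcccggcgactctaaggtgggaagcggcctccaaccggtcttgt
Chac1: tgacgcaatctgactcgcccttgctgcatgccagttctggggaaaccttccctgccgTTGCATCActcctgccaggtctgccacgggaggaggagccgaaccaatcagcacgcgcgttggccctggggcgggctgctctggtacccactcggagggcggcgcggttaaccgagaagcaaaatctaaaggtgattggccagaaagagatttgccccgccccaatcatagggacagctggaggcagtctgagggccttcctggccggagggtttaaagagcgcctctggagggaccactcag
Nupr1: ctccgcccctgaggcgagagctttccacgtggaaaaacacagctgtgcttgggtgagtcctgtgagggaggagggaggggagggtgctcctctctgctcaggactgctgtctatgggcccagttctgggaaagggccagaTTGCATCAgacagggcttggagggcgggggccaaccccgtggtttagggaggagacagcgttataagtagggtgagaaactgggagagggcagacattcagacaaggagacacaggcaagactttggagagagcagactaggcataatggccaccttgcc
The element was in 4.5% of all 27025 genes of the table. It was in the promoters of 6 of the 19 stress response regulators found there, of which 4 were among the 9 that rose and 2 among the 10 that were not called. Among amino acid enzymes and carriers it was in 5 of 19, and 1 of those, Asns, was called. Among tRNA synthetases it was in 4 of 11, and 2 of those, Gars and Yars, were called. Among amino acid genes it was thus in 1 of 5 called and 4 of 14 uncalled, and among synthetases in 2 of 4 called and 2 of 7 uncalled. In these windows both called and uncalled genes of each list held the element, and whether its share differed between them was not tested. Chac1, an enzyme that degrades glutathione, read 4.02, 4.44 and 4.70 untreated and 5.77, 5.56 and 5.85 treated, and it rose by 1.34 (SE 0.25, adjusted p = 0.00966). Its call was lost without 0-week replicate 1 (adjusted p = 0.0608).

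Of 23 amino acid enzymes and carriers linked to ATF4, 5 rose and 1 fell, and the median of 0.06 was close to that of all genes. The counts with 1 array left out were 4, 4, 4, 5, 5 and 4. Asns, asparagine synthetase, read 6.49, 6.30 and 7.05 untreated and 9.09, 8.29 and 9.22 treated, and it rose by 2.25 (SE 0.28, adjusted p = 0.00119), a 4.77-fold increase. Slc7a1, the carrier of cationic amino acids, read 6.17, 5.90 and 6.04 untreated and 7.64, 7.80 and 7.84 treated, and it rose by 1.72 (SE 0.22, adjusted p = 0.00119). Aldh1l2, a mitochondrial folate enzyme, rose by 1.45 (SE 0.25), and Aldh18a1, which makes proline and ornithine precursors, by 0.97 (SE 0.18). Cth, the enzyme that makes cysteine from cystathionine, was the member that fell, by 1.02 (SE 0.22, adjusted p = 0.0194). Its call was kept without 3-week replicate 1 alone, and with each of the others left out its adjusted p lay between 0.0517 and 0.0813.

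Of 18 cytosolic tRNA synthetases, which charge tRNAs with amino acids, 5 rose, none fell and 17 had a positive difference. The median was 0.48, and the counts with 1 array left out were 1, 3, 2, 1, 4 and 2. Nars, the asparagine enzyme, read 8.19, 8.37 and 8.08 untreated and 9.26, 9.18 and 8.95 treated, and it rose by 0.92 (SE 0.16, adjusted p = 0.00707). The other rises, in Gars, Eprs, Yars and Mars1, lay between 0.73 and 0.97, and they passed in 3, 1, 3 and 0 of those 6 fits. Of 20 chaperones and genes of the unfolded protein response 2 rose and none fell, with counts of 1, 1, 1, 1, 2 and 2 with 1 array left out. Edem1, which sends misfolded glycoproteins to degradation, read 6.48, 6.56 and 5.94 untreated and 7.61, 7.27 and 7.37 treated, and it rose by 1.09 (SE 0.20, adjusted p = 0.00834). Hspa5, the main chaperone of the endoplasmic reticulum, had a difference of 0.23 (SE 0.22).

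Calls were few in number among genes of oxidative stress and of copper and iron handling, and no respiratory chain subunit passed. Of 21 targets of the antioxidant factor Nrf2, 1 rose and 1 fell, with a median of -0.03. These calls were 9.52% of the list, against 3.24% of all genes. The counts with 1 array left out were 0, 0, 2, 1, 2 and 1. Gpx1, a glutathione peroxidase, rose by 1.08 (SE 0.25, adjusted p = 0.0313) and Gstm1, a glutathione transferase, fell by 0.89 (SE 0.17, adjusted p = 0.0117). The Gpx1 call was lost without 0-week replicate 1 (adjusted p = 0.13) or 2 (0.116) and without 3-week replicate 1 (0.122) or 3 (0.0615), and with the 6 arrays compared alone (0.0794). The Gstm1 call was lost without 0-week replicate 1 (adjusted p = 0.0677) or 2 (0.0526). Of 21 genes of copper and iron handling none rose and 1 fell (4.76% of the list), the ferrireductase gene Steap3, with counts of 0, 0, 1, 0, 2 and 0. By limma 10 of them, 5 higher and 5 lower, had an unadjusted p under 0.05. Over all 19505 genes, 3142 had such a p. Steap3 fell by 0.97 (SE 0.25, adjusted p = 0.0496), and its call held without 3-week replicate 2 alone, with adjusted p otherwise between 0.0809 and 0.21, and of 0.0534 with the replicate block. Hmox1, heme oxygenase, had a difference of 0.41 (SE 0.18, adjusted p = 0.285). By limma no member was called among 35 subunits of complex I (3 at an unadjusted p under 0.05), 25 subunits of complexes II to IV (2), 15 of ATP synthase (2) or 22 genes of glycolysis and lactate (6). Complex IV carries copper, and the median over complexes II to IV was 0.06.

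Some targets of p53 rose. Of 29 measured, 7 rose and none fell, against 1.61% of all genes called higher, with a median of 0.38, and the counts with 1 array left out were 5, 4, 5, 5, 6 and 5. The list mean read 5.95, 6.00 and 5.89 on the untreated arrays and 6.42, 6.50 and 6.45 on the treated ones. Cdkn1a, the cell cycle inhibitor p21, read 9.02, 9.29 and 6.54 untreated and 11.32, 11.93 and 11.45 treated, and it rose by 3.28 (SE 0.51, adjusted p = 0.0033), a 9.74-fold increase. Untreated replicate 3 lay well below the other untreated arrays, and all treated values were still higher. Eda2r, a receptor of the tumour necrosis factor family, read 3.36, 3.58 and 3.41 untreated and 5.72, 5.53 and 5.70 treated, and it rose by 2.20 (SE 0.21, adjusted p = 0.000242). Its untreated values were below the lower quartile of the arrays, where RMA values are compressed. Phlda3, an inhibitor of Akt, read 6.86, 7.02 and 7.04 untreated and 8.88, 8.57 and 9.10 treated, and it rose by 1.88 (SE 0.29, adjusted p = 0.003). Ccng1, cyclin G1, read 7.14, 7.30 and 7.14 untreated and 8.74, 8.53 and 8.68 treated, and it rose by 1.46 (SE 0.20, adjusted p = 0.00164). Other members stood lower, with Sesn1, a sestrin, at a difference of -0.79 (SE 0.22, adjusted p = 0.068). Of 32 genes of cell division and DNA replication, Cdkn1a was also among the 2 that rose, and the other was Pcna, the replication clamp and a p53 target, with counts of 1, 1, 2, 1, 2 and 1. The Pcna call was lost without 0-week replicate 1 (adjusted p = 0.104) or 2 (0.114) and without 3-week replicate 1 (0.116) or 3 (0.0883).

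Cytosolic ribosomal proteins, a list added after values had been seen, were higher as a group. All 55 measured had a positive difference, 23 rose, none fell and the median was 0.69. The count depended on single arrays and was 1, 6, 9, 1, 36 and 5 with 1 array left out, while the median stayed between 0.57 and 0.85. The list mean read 8.61, 8.76 and 8.72 untreated and 9.65, 9.10 and 9.39 treated, so 3-week replicate 1 was highest here too. Rpl22, of the large subunit, read 7.59, 7.56 and 7.47 untreated and 9.04, 8.39 and 8.56 treated, and it rose by 1.12 (SE 0.21, adjusted p = 0.00993). Pabpc1, the poly(A)-binding protein and 1 of 7 risen among 29 translation factors, read 9.33, 9.33 and 9.43 untreated and 10.74, 10.46 and 10.16 treated, and it rose by 1.09 (SE 0.20, adjusted p = 0.00939). The list of translation factors was also added after values had been seen, and its counts with 1 array left out were 1, 2, 4, 1, 7 and 2. Microglia markers were also highest on 3-week replicate 1. Replicate 2 came next for those markers and last for the ribosomal proteins. On the 12-week wild-type arrays both lists were highest on replicate 2, then replicate 3, then replicate 1. The part of myeloid RNA in these rises was not tested. Ribosomal protein genes have many processed copies, which probes may not separate.

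Several clock genes fell, but not alike on the 3 treated arrays. Of 19 measured, 7 fell, 1 rose and the median was -0.71, and the counts with 1 array left out were 2, 3, 3, 2, 11 and 2. The list mean read 7.90, 7.72 and 7.62 untreated and 7.06, 7.62 and 7.08 treated, so 3-week replicate 2 lay with the untreated arrays. Nr1d1, the repressor REV-ERB alpha, read 9.96, 9.66 and 9.47 untreated and 7.95, 9.31 and 7.76 treated, and it fell by 1.36 (SE 0.34, adjusted p = 0.0399). Dbp, an output gene of the clock, read 10.04, 9.88 and 10.22 untreated and 8.39, 9.67 and 8.35 treated, and it fell by 1.24 (SE 0.27, adjusted p = 0.0225). Among the fits with 1 array left out both calls were kept without 3-week replicate 2 alone, and both were lost with the 6 arrays compared alone (adjusted p = 0.0732 for Nr1d1 and 0.0678 for Dbp). Nr1d1 also lost its call with trend and robust variance (0.0508). With the 0-week replicates left out in order the adjusted p of Nr1d1 was 0.157, 0.116 and 0.07 and that of Dbp was 0.0846, 0.0597 and 0.0775. Without 3-week replicates 1 and 3 in turn it was 0.157 and 0.149 for Nr1d1 and 0.104 and 0.0866 for Dbp.

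Of the other clock genes called, Nfil3 and Rorb passed with each array left out, while Per3, Nr1d2 and Rora passed in 1 of the 6 fits each and Bhlhe40 in 3. Nfil3, a repressor that competes with DBP, read 4.68, 4.87 and 5.20 untreated and 7.76, 6.54 and 8.00 treated, and it rose by 2.52 (SE 0.36, adjusted p = 0.00235). Rorb, an orphan nuclear receptor of the clock, read 9.19, 9.18 and 9.38 untreated and 8.29, 8.23 and 8.19 treated, and it fell by 1.01 (SE 0.17, adjusted p = 0.00583). The treated arrays agreed closely for Rorb and were spread for Nr1d1, Dbp and Nfil3. Arntl, the activator BMAL1, had a difference of 0.11 (SE 0.21) and Clock, its partner, one of 0.29 (SE 0.16). The sources used here do not give the time of day at which the mice were killed. Of 17 glucocorticoid response genes, a list added after values had been seen, 2 fell, none rose and the median was -0.58. The counts with 1 array left out were 1, 1, 2, 1, 1 and 2. The mean of that list read 7.83, 7.90 and 6.89 untreated and 6.79, 7.62 and 6.89 treated, so the groups overlapped. Any relation of this spread to the clock genes or Cdkn1a was not tested.

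**Figure D4:**
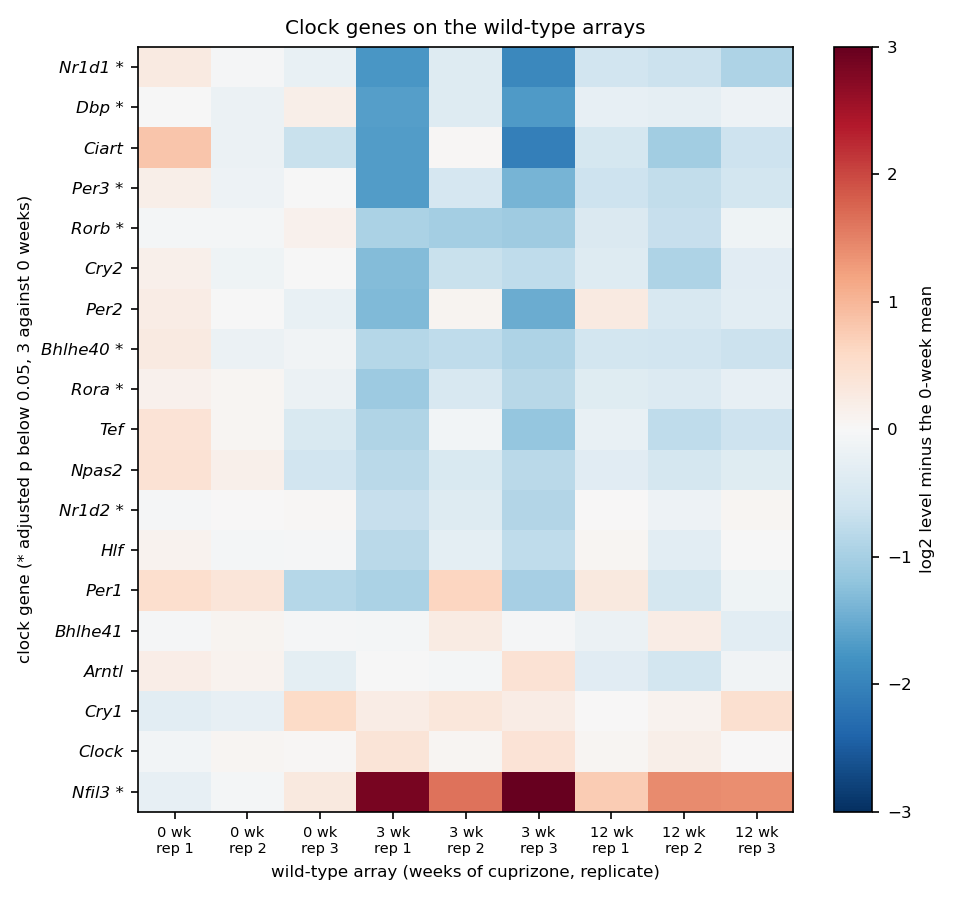
Heat map of 19 clock genes on the 9 wild-type arrays, as the log2 level minus the mean of the 0-week arrays (blue lower, red higher; an asterisk marks an adjusted p below 0.05 for 3 against 0 weeks). On 3-week replicate 2 Nr1d1, Dbp and Per3 lie near the untreated arrays, while Nfil3 and Rorb differ on all 3 treated arrays.

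Synaptic vesicle, GABA and neuropeptide genes were higher in some members. Of 34 measured, 8 rose, 1 fell and the median was 0.25, and the counts with 1 array left out were 4, 4, 4, 8, 6 and 6. Syt4, a synaptotagmin of secretory vesicles that astrocytes also express, read 5.54, 5.15 and 5.29 untreated and 8.61, 8.43 and 8.51 treated. It rose by 3.19 (SE 0.25, adjusted p = 3.95e-05), a 9.13-fold increase and the smallest adjusted p of the comparison, and its 12-week mean was 7.54. Nrsn2, a neuronal vesicle protein, read 4.92, 3.94 and 4.93 untreated and 6.28, 7.28 and 7.84 treated, and it rose by 2.54 (SE 0.33, adjusted p = 0.00119). Slc32a1, the vesicular GABA transporter, read 4.12, 4.57 and 4.78 untreated and 5.42, 5.99 and 6.18 treated, and it rose by 1.37 (SE 0.24, adjusted p = 0.00649). All 3 had separate groups, as nearly all called genes did. Beside them, the 12 neuron markers averaged 6.96, 6.47 and 6.38 untreated and 6.59, 7.21 and 7.17 treated. Of those markers 2 rose, Snap25 and Gad1, and the counts with 1 array left out were 1, 0, 1, 2, 1 and 1. Snap25 kept its call without 3-week replicate 1 alone, with adjusted p otherwise between 0.0539 and 0.124, and Gad1 lost its call without 0-week replicate 2 (adjusted p = 0.0792). The groups overlapped in the neuron marker mean, since 0-week replicate 1 lay above 3-week replicate 1, and the part of neuronal RNA in these rises was not tested.

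Of 26 imprinted genes, expressed from a single parental copy, 3 rose and none fell, and the counts with 1 array left out were 2, 2, 2, 2, 3 and 2. Peg10, derived from a retrotransposon, read 6.59, 6.37 and 5.64 untreated and 8.37, 8.64 and 8.45 treated, and it rose by 2.29 (SE 0.27, adjusted p = 0.000942). Usp29 read 3.22, 3.07 and 3.22 untreated and 4.99, 5.53 and 5.81 treated, and it rose by 2.27 (SE 0.24, adjusted p = 0.00052), from values below the lower quartile. Resp18, a protein of endocrine secretory granules outside these lists, read 5.33, 5.29 and 5.42 untreated and 7.24, 7.43 and 8.05 treated, and it rose by 2.23 (SE 0.40, adjusted p = 0.00726). The 12-week means of 6.77 for Peg10, 3.87 for Usp29 and 5.70 for Resp18 lay nearer the untreated than the 3-week means.

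A few immediate early genes rose. Of 26 genes of the AP-1 and EGR families and their kin, 4 rose, against 1.61% of all genes called higher, none fell and the median was 0.42, and the counts with 1 array left out were 3, 3, 3, 3, 3 and 6. Egr2 read 5.56, 5.84 and 5.68 untreated and 8.12, 7.98 and 7.56 treated, and it rose by 2.19 (SE 0.23, adjusted p = 0.00052). Junb read 6.49, 6.10 and 6.86 untreated and 8.45, 8.24 and 7.90 treated, and it rose by 1.71 (SE 0.30, adjusted p = 0.00592). Both encode transcription factors that cells raise soon after a stimulus. Gadd45b, a stress sensor, rose by 2.39 (SE 0.31, adjusted p = 0.00119).

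Markers of microglia and macrophages rose, although Fc receptor blocking was meant to keep these cells out. Of 17 measured, 12 rose, none fell and the median was 2.32, and the counts with 1 array left out were 9, 4, 7, 10, 13 and 13. Tyrobp, the signalling adaptor of microglial receptors, read 5.39, 4.88 and 4.91 untreated and 9.79, 7.41 and 7.25 treated, and it rose by 3.09 (SE 0.54, adjusted p = 0.00649). C1qa, of complement C1q, read 7.05, 6.35 and 6.58 untreated and 11.01, 8.76 and 8.43 treated, and it rose by 2.74 (SE 0.50, adjusted p = 0.00837). Replicate 1 of the treated arrays was highest for both, and replicates 2 and 3 also lay above all untreated arrays. Tmem119 and P2ry12, which mark resting microglia, had differences of 0.57 (SE 0.34) and 1.12 (SE 0.56) and did not pass.

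Some cytokines and innate receptors rose with the same order of arrays. Ccl3, a chemokine of myeloid cells, read 3.35, 3.67 and 3.41 untreated and 8.62, 6.56 and 5.76 treated, and it rose by 3.50 (SE 0.53, adjusted p = 0.003), from a mean below the lower quartile. Il1b, interleukin 1 beta, read 3.53, 3.75 and 4.58 untreated and 8.44, 6.84 and 5.98 treated, and it rose by 3.13 (SE 0.52, adjusted p = 0.00471). C3ar1, the receptor for complement C3a, read 3.61, 4.0 and 3.75 untreated and 8.52, 6.49 and 6.05 treated, and it rose by 3.23 (SE 0.51). The 3 near-identical genes Bcl2a1a, Bcl2a1b and Bcl2a1d, survival factors of blood cells, rose by 3.75, 3.70 and 3.29, and their probes may not separate them. Of 28 chemokines and cytokines 5 rose and 2 fell, with counts of 3, 4, 4, 4, 6 and 6 with 1 array left out. Il18 was one that fell. It read 10.10, 10.02 and 10.15 untreated and 9.13, 8.92 and 9.08 treated, and it fell by 1.05 (SE 0.17, adjusted p = 0.00464). Tlr3, the receptor for double-stranded RNA and the member that fell among 19 Fc and Toll-like receptors, read 9.89, 9.83 and 9.83 untreated and 8.65, 8.07 and 8.57 treated, and it fell by 1.42 (SE 0.21, adjusted p = 0.00252). Il18 and Tlr3 were lower on all 3 treated arrays, where the microglia markers were higher.

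Leaving out 3-week replicate 1 left 270 calls, of which 253 were among the 632. The median called gene had 95.3% of the difference it had with all arrays. In 631 of the 632 the groups were separate with all arrays, which fixes their direction here. The median of the microglia markers went from 2.32 to 1.62, with 10 of 17 still called. Over the 20 stress response regulators the median went from 0.31 to 0.42 with 4 called, over the 29 p53 targets from 0.38 to 0.42 with 5 called, and over the 17 sterol enzymes from -0.89 to -0.80 with 6 called. Standard errors grew by a median ratio of 1.14. The share of myeloid RNA in the rises of genes outside the marker list was not tested.

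**Figure D5:**
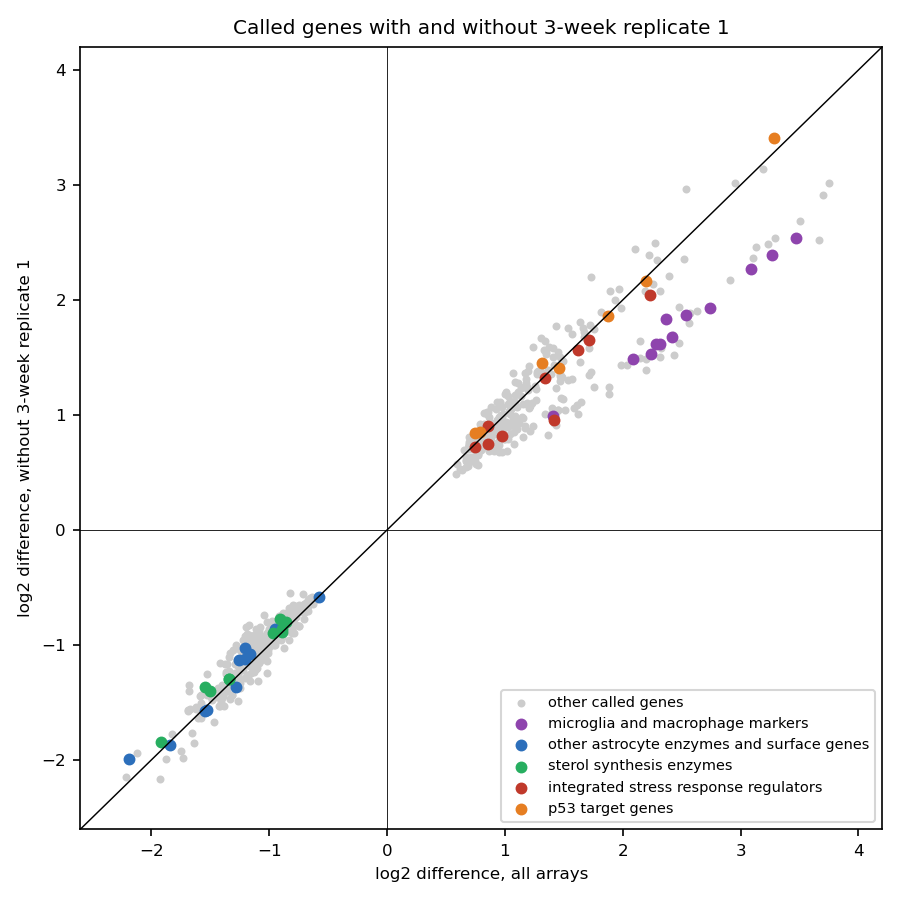
Log2 difference, 3 weeks minus 0 weeks, of the 632 called genes with all arrays (horizontal axis) and without 3-week replicate 1 (vertical axis), with 5 lists in colour and a line of equality. Microglia markers lie below the line, and most astrocyte, sterol, stress response and p53 genes lie nearer to it. Atf3 of the stress response is also below it, at 0.96 against 1.42 with all arrays.

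In the Wnt, Hedgehog, Notch and TGF-beta pathways the calls were falls. Of 31 Wnt receptors and feedback genes 3 fell and none rose, and the counts with 1 array left out were 1, 1, 3, 1, 4 and 1. Fzd2, a Wnt receptor and the largest fall of the comparison, read 11.47, 10.91 and 9.84 untreated and 8.41, 8.94 and 8.24 treated, and it fell by 2.21 (SE 0.37, adjusted p = 0.00532). Of 23 Hedgehog and Notch genes 3 fell, with counts of 2, 2, 3, 2, 4 and 2. Gli3, a transcription factor of the Hedgehog pathway, read 8.94, 8.89 and 9.17 untreated and 7.47, 7.55 and 7.22 treated, and it fell by 1.59 (SE 0.19, adjusted p = 0.00101). Nrarp, a feedback inhibitor of Notch, fell by 1.02 (SE 0.19, adjusted p = 0.00993). Of 29 genes of TGF-beta and BMP signalling 5 fell, with counts of 3, 3, 4, 3, 4 and 4, and they included Gdf10 and Chrdl1 above. Id2, a target of bone morphogenetic proteins, read 8.35, 8.37 and 8.15 untreated and 7.07, 6.87 and 7.27 treated, and it fell by 1.22 (SE 0.19, adjusted p = 0.00412). The list medians were -0.23, -0.34 and -0.17.

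Of 38 proteoglycan and matrix genes 6 fell and 2 rose, with counts of 4, 6, 7, 6, 9 and 7 with 1 array left out. Lama3, a laminin chain, read 7.37, 7.31 and 7.33 untreated and 5.69, 5.20 and 5.49 treated, and it fell by 1.88 (SE 0.24, adjusted p = 0.00119). Hapln1, which links hyaluronan to proteoglycans, read 8.86, 8.56 and 8.52 untreated and 7.41, 6.65 and 6.68 treated, and it fell by 1.73 (SE 0.22, adjusted p = 0.00119). Gpc5, a glypican, fell by 1.33 (SE 0.19), and Lama2, another laminin chain, by 1.15 (SE 0.17). Mmp12, the macrophage elastase, was one of the rises, by 3.66 (SE 0.70, adjusted p = 0.0102), and it was highest on 3-week replicate 1 at 9.26, against 6.23 and 5.46 on the others. Its call was lost without 0-week replicate 1 (adjusted p = 0.0617) and with trend and robust variance (0.0637).

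Mgat5b, which encodes GnT-IX, the brain enzyme that branches O-mannosyl glycans, did not pass. It read 5.72, 5.57 and 5.74 untreated and 5.78, 6.49 and 5.85 treated, a difference of 0.36 (SE 0.21, adjusted p = 0.426), which was 0.14 without 3-week replicate 2. Ptprz1, a phosphatase that carries such glycans, had a difference of -0.42 (SE 0.23, adjusted p = 0.388). The untreated and treated levels of both genes were thus not told apart. Of 17 enzymes of HNK-1, branched and O-mannosyl glycans 2 fell, Chst10 and Fut9, with counts of 0, 0, 1, 0, 1 and 1 with 1 array left out. Chst10, the HNK-1 sulfotransferase, fell by 1.02 (SE 0.22, adjusted p = 0.0229), and it kept its call without 3-week replicate 3 alone, with adjusted p otherwise between 0.0502 and 0.104. Fut9, which makes the Lewis X epitope, fell by 0.82 (SE 0.18, adjusted p = 0.0207). Its call was kept without 0-week replicate 3 and without 3-week replicate 2, and its adjusted p was otherwise between 0.0597 and 0.107.

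No marker of mature oligodendrocytes passed limma's test (0 of 18, with 2 at an unadjusted p under 0.05), and the median was -0.14. Mbp, myelin basic protein, read 10.01, 10.32 and 9.66 untreated and 9.74, 10.16 and 10.51 treated. Mog, a myelin surface protein, read 9.37, 9.64 and 9.15 untreated and 9.05, 9.12 and 9.80 treated. Both ranges overlapped. Of 13 markers of oligodendrocyte precursors none passed, 6 had an unadjusted p under 0.05, all higher, and the median was 0.57. Olig2, a transcription factor of the lineage, had a difference of 0.78 (SE 0.25, adjusted p = 0.109), and Sox10 one of 0.72 (SE 0.23, adjusted p = 0.121). Among endothelial, pericyte, choroid plexus, ependymal, lymphocyte, and neutrophil and monocyte markers none was called, and 3, 0, 0, 0, 1 and 1 had an unadjusted p under 0.05. Endothelial markers averaged 6.23, 6.07 and 6.18 untreated and 6.88, 6.03 and 6.72 treated.

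The direct test of 12 against 3 weeks, from the same fit, called 16 genes, or 0.082% of those tested, with 2222 at an unadjusted p under 0.05. Of these 5 were higher after 12 weeks and 11 lower. Several were the rises described above. Eda2r was at 4.02 ± 0.37 (SD, n = 3) after 12 weeks against 5.65 ± 0.10 after 3, a difference of -1.63 (SE 0.21, adjusted p = 0.0199). Nrsn2, Slc32a1, Peg10 and Usp29 were also lower after 12 weeks, with differences of -2.22, -1.62, -1.72 and -1.57. Prex2 and Rpe65, which had fallen at 3 weeks, were higher after 12 weeks by 1.41 and 1.55. Rpe65, known as the retinoid isomerase of the eye, read 6.33, 6.08 and 5.96 untreated, 4.68, 4.0 and 3.91 after 3 weeks and 5.77, 5.15 and 6.32 after 12. The count was 146, 4 and 0 without 3-week replicates 1, 2 and 3 and 13, 2 and 1 without the 12-week replicates.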

How the data were processed

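RNA of GLAST-selected white matter cells was measured on 12 Affymetrix arrays, 3 in each of 4 groups, after 3' labelling per the labels' protocols. The authors deposited log2 values made by RMA (background correction, quantile normalization, probe summary) in Affymetrix Expression Console 1.4, per the submitters' processing notes. RMA compresses differences of dim transcripts. Each sample's title gave its group and replicate number, and per the labels the replicates are biological and independent.

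Of 22206 transcript clusters, 19572 had 1 symbol, all matched to RefSeq's GRCm38.p6 table by Entrez identifier, and 2634 are unnamed here and were left out. Where a gene had several clusters (55 genes), its brightest cluster was used, which left 19505 genes, with no filter on dim ones. The fit used lmFit and eBayes of limma 3.58.1 under R 4.3.3 (two-sided tests, 1 mean per group, all 12 arrays, 8 residual degrees of freedom). P-values were adjusted by Benjamini-Hochberg over all genes, with a threshold of 0.05. Errors are standard errors of that fit or SDs over 3 arrays, and the number of arrays limits the precision. The fit was tested on simulated data.

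The comparison and its 65 gene lists, with 1154 measured genes, were chosen with earlier results of these data known. Of the lists, 7 were added after values had been seen here. Genes eligible to be named were the 15 largest rises and 15 largest falls with separate groups, up to 6 called members a list, Slc1a3, Gfap, Mgat5b, Aqp4, Srebf2, Atf4 and Ptprz1, and genes called for 12 against 3 weeks. Not all were described. Among the largest rises, the macrophage markers Mpeg1 (3.47) and Ly86 (3.27), Slc15a3 (3.10) and the phagocyte oxidase gene Cybb (2.91) were left out. Among the largest falls, Kirrel2 (-2.12), Grin2c (-1.69) and Lfng (-1.68) were. Of these 7, Ly86, Kirrel2 and Grin2c passed in 5 of the 6 fits with 1 array left out and Lfng in 2. Others, such as Resp18 and Gadd45b, were chosen after their values were seen. Alternatives covered centring, a second normalization, the choice among clusters, leaving out dim genes, array weights, the variance model, which arrays were fitted, the replicate block, a test against a minimum fold, and fits with any 1 array left out. Plots are from matplotlib 3.10.9.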

Additional observations from a re-analysis of the deposited data

Results flagged for a closer look

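The change from 0 to 3 weeks and the change from 0 to 12 weeks share the untreated arrays, and the difference between them is the direct test of 12 against 3 weeks. By limma with Benjamini-Hochberg adjustment 16 genes differed, each given here as the 12-week minus the 3-week level (log2). Of these, 11 were lower after 12 weeks. Nrsn2 stood at -2.22, Bpifc at -1.84, Tmem74 at -1.77, Peg10 at -1.72, Gjb1 at -1.69, Eda2r at -1.63, Slc32a1 at -1.62, Usp29 at -1.57, Rffl at -1.29, Prox1 at -1.28 and Ppfibp2 at -1.25. The other 5 were higher after 12 weeks, with Rpe65 at 1.55, Atp6v0d2 at 1.54, Slamf7 at 1.47, Klrb1c at 1.43 and Prex2 at 1.41.

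Gjb1, which encodes the connexin 32 of oligodendrocytes, averaged 9.73 ± 0.19 untreated, 10.26 ± 0.36 after 3 weeks and 8.57 ± 0.10 after 12 (SD, n = 3 each). Atp6v0d2, a proton pump subunit of osteoclasts and macrophages, averaged 3.49 ± 0.21, 3.39 ± 0.37 and 4.93 ± 0.49 in the same order. Klrb1c, a receptor of natural killer cells, Slamf7, a receptor of leukocytes, and Atp6v0d2 averaged less than the arrays' lower quartile at 0 and 3 weeks.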

How the results depend on the processing

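With 1 array left out the medians of the SREBP regulators, the Nrf2 targets and the mature oligodendrocyte markers, all near 0, ranged from -0.25 to 0.02, from -0.07 to 0.02 and from -0.32 to 0.0025. For 3 against 0 weeks a second quantile normalization called 588 genes (258 higher), median centring 614 (252 higher), the fit without the dimmest 30% of genes 719, a variance model with trend and robust estimates 647, array weights 887 and the fit of the 6 arrays alone 554. A test against a minimum change of 2-fold called 1. With 1 array left out the count lay between 192 and 643, between 103 and 306 for higher genes and between 89 and 337 for lower ones. For 12 against 3 weeks, against 16, the count was 9 without the dimmest 30% of genes, 30 with trend and robust variance, 33 with array weights, 9 with the 6 arrays compared alone, and between 0 and 146 with 1 array left out. Same-numbered arrays did not deviate together (r = -0.0738, 0.0175 and 0.178 across genes for numbers 1, 2 and 3), so the numbers were not taken as pairs. The fit with the replicate number as a block called 543 genes for 3 against 0 weeks and 15 for 12 against 3 weeks. The cause of these shifts was not tested, except that a fit with an array left out holds fewer samples.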

Other observations

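Several calls lay outside the groups described above, and their genes were chosen after values had been seen. L1cam, a neural adhesion molecule, read 6.91, 6.72 and 6.90 on the untreated arrays and 8.15, 8.73 and 8.37 after 3 weeks, and it rose by 1.57 (SE 0.24, adjusted p = 0.00273). Tnfrsf12a, the receptor for the cytokine TWEAK, read 6.55, 6.53 and 6.45 untreated and 8.08, 8.21 and 8.25 treated, and it rose by 1.67 (SE 0.25, adjusted p = 0.003). Igfbp3, a binding protein of insulin-like growth factors, rose by 1.42 (SE 0.25, adjusted p = 0.00612). Nfe2l1, a transcription factor for proteasome genes, read 9.94, 9.89 and 10.02 untreated and 10.88, 11.02 and 10.81 treated, and it rose by 0.95 (SE 0.15, adjusted p = 0.00412). In each of these the treated arrays lay above the untreated ones, as in nearly all called rises, and each passed with any 1 array left out.

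Carns1, the enzyme that joins beta-alanine and histidine into carnosine, read 7.86, 8.16 and 7.84 untreated and 5.62, 6.67 and 6.54 treated, and it fell by 1.68 (SE 0.27, adjusted p = 0.0046). Scara3, a scavenger receptor, read 8.99, 8.60 and 8.08 untreated and 6.63, 7.06 and 6.50 treated, and it fell by 1.83 (SE 0.25, adjusted p = 0.00179). Gulp1, an adaptor for engulfment, fell by 1.10 (SE 0.20, adjusted p = 0.00868), and among 20 genes of phagocytosis 3 fell, with Mfge8 and Mertk, and 1 rose, Elmo1. The Mertk call was lost without 0-week replicate 1 (adjusted p = 0.093) or 2 (0.0759) and without 3-week replicate 3 (0.0749), and the Elmo1 call without 0-week replicate 1 (0.0665), 2 (0.0597) or 3 (0.0602) and without 3-week replicate 3 (0.0673). The 12-week means were 6.38 for Carns1, close to its 3-week mean of 6.28, and 7.89 for Scara3, which lay between its means at 3 weeks (6.73) and 0 weeks (8.56).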
